A study of Brassica napus with 74 samples.

Results

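The 6 copies of *OLEO1* in the allotetraploid oilseed *B. napus* are described here across the seed. *B. napus* carries an A and a C subgenome, so a gene usually has a pair of homoeologs, 1 in each. The copies form 3 such pairs, named here by chromosome: A08 (BnaA08g14540D) with C08 (BnaC08g11970D), A01 (BnaA01g14480D) with C01 (BnaC01g17050D), and A03 (BnaA03g47170D) with C07 (BnaC07g39370D). They are 6 of the 101040 gene rows in the table, and they were picked out by identifier, with earlier results of these data known. The paper had already reported a bias toward the A copy in a pair of these genes, so they are not an unselected set. All 6 passed the filter on low values, which kept the 99343 genes that averaged 1 TPM or more in some subregion. TPM are read counts corrected for gene length and scaled to 1 fixed total in each library.

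Oleosins are small proteins that sit in the surface of oil bodies, the organelles in which seeds store triacylglycerol. In Arabidopsis, OLEO1 is a main oleosin of the seed, and loss of oleosins leaves enlarged oil bodies. Oil is laid down mainly during maturation, together with 2S albumins (SESA genes) and cruciferins (CRU genes), the storage proteins of the seed.

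The seeds were of 1 cultivar, Topas, with no treatment and no mutant. Subregions were cut from paraffin sections by laser microdissection (LMD) at the ovule (0 d after pollination), globular (7 d), heart (10 d), and mature green (28 d) stages, abbreviated ov, g, h, and mg. Maternal subregions at each stage were the chalazal proliferating tissue (CPT), chalazal seed coat (CZSC), inner distal seed coat (ISC), and outer distal seed coat (OSC). Filial subregions were the embryo proper (EP), micropylar endosperm (MCE), peripheral endosperm (PEN), and chalazal endosperm (CZE) at the globular and heart stages, and the cotyledons (COT) and embryonic root (ROOT) of the mature green embryo. No mature green endosperm was among the subregions. In all, 74 libraries covered 26 subregions, 44 from 16 maternal and 30 from 10 filial subregions, and each library was made from pooled sections of several plants, so that p-values measure the spread between such pools.

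Recovered reads, counted over the 88749 genes on which whole reads could be read back from the TPM steps, numbered 76305 to 10251870 per library with a median of 2727290. In 3 libraries the tissue label went against the title: mgCPT replicate 1 was labelled endosperm, and mgCOT replicates 1 and 2 were labelled seed coat. The title was used. For the seed coat genes *UGE1*, *ASPG1*, and *CUT1*, the summed level in those 2 mgCOT libraries was 3.10 and 1.34 TPM, inside the range of the 5 mature green embryo libraries (1.34 to 7.18 TPM) and below that of the 10 mature green maternal libraries (20.1 to 346 TPM). In mgCPT replicate 1 it was 26.04 TPM, toward the low end of the maternal range, and *LEC1* was at 5.15 TPM, the highest of the 10 maternal libraries (0.796 to 5.15 TPM), against 0.0685 to 0.196 TPM in the embryo. The seed coat sum was lower still in mgCPT replicate 2 (20.05 TPM). The CPT and inner seed coat marker *CEP1* lay between 1.82 and 18.9 TPM in mature green maternal libraries, against at most 0.242 TPM in the embryo. In mgCPT replicate 1 *CEP1* was at 9.51 TPM, between replicate 2 (8.62 TPM) and replicate 3 (18.9 TPM). *LEC1*, a regulator of embryo and endosperm development, was at 63.1 to 88.0 TPM in the 3 hEP libraries and at 319 to 1001 TPM in the hMCE and hPEN, so it did not set the embryo apart from endosperm. The name of 1 mgCZSC library gave the subregion but matched no title, and no column was named for replicate 2. Over genes it correlated at r = 0.736 with replicate 1 and 0.673 with replicate 3, against 0.818 between those replicates, and its storage genes summed to 35314 TPM, against 40184 TPM in replicate 1 and 2500 TPM in replicate 3. It is called the unnumbered library here.

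*OLEO1* transcripts were present at every stage and reached high levels at mature green. Summed over the 6 copies, the median was 5.19 TPM in the 11 ovule libraries. At the globular stage it was 2.03 TPM in 11 maternal and 12.5 TPM in 14 filial libraries, at the heart stage 21.9 TPM in 12 maternal and 44.9 TPM in 11 filial libraries, and at mature green 7504 TPM in 10 maternal and 2322 TPM in 5 embryo libraries. The lowest mature green library (1228 TPM, mgROOT replicate 1) was above the highest earlier library (310 TPM, ovCPT replicate 2).

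**Figure D1:**
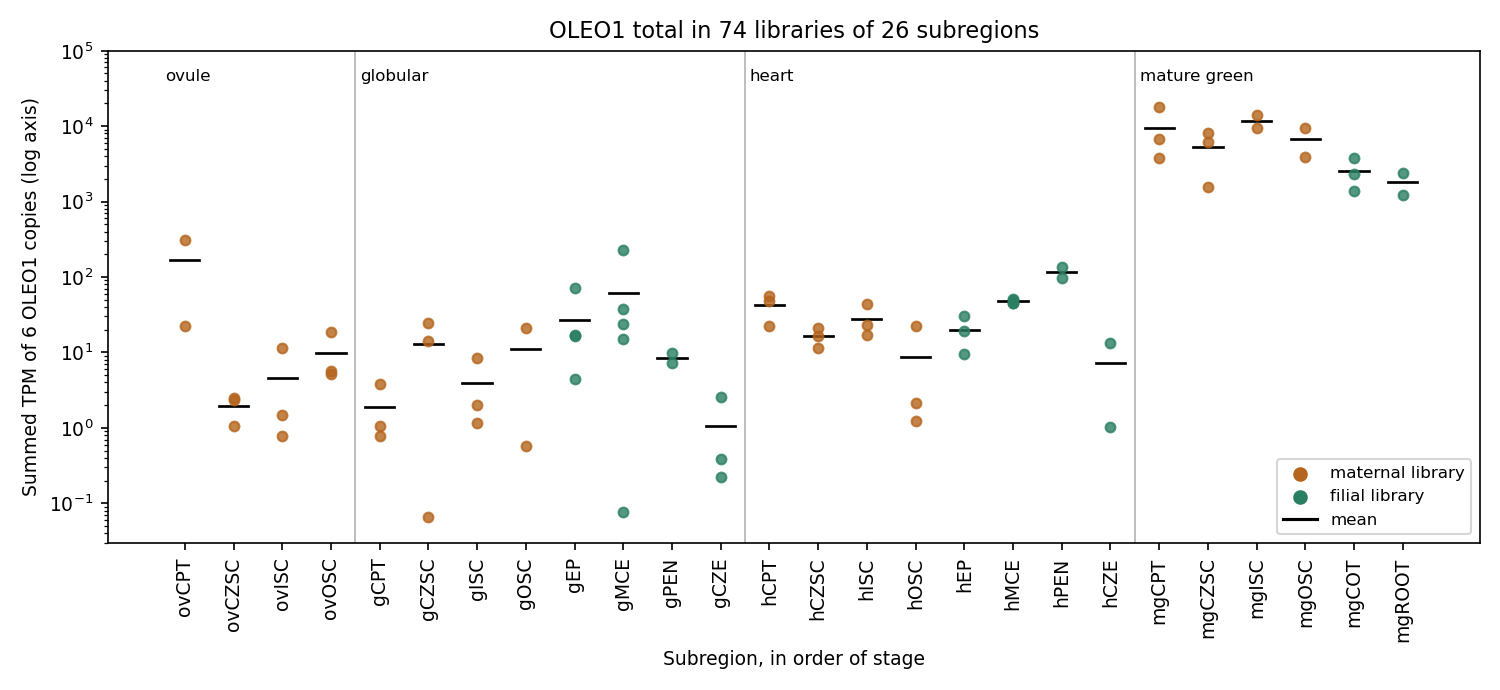
Summed TPM of the 6 *OLEO1* copies on a log axis, with 1 point per library, a bar at the mean of each subregion, and color for maternal and filial libraries. The 15 mature green libraries lie between 1228 and 18109.8 TPM, above all earlier libraries.

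The number of reads on the copies differed in the same way, which is not the depth of whole libraries. Over whole libraries, recovered reads numbered 400529 to 6850212 at mature green and 110725 to 7103845 at the ovule stage. In the 15 mature green libraries, 6958 to 210619 reads lay on the 6 copies and no copy was at 0 reads. Of the 138 values of the heart stage (6 copies in 23 libraries) 10 were at 0 reads, of the 150 globular values 40, and of the 66 ovule values 7. A value of 0 reads allows up to 3 reads, which in the heart libraries is 0.143 to 3.27 TPM depending on the copy and the library. This covers counting error only. The highest ovule total rested on 43 reads and the highest globular total, 230 TPM in gMCE replicate 2, on 332 reads.

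By mean total, the order of the subregions was mgISC (11754 ± 3293 TPM, SD, n = 2), mgCPT (9555 ± 7561, n = 3), mgOSC (6747 ± 3992, n = 2), mgCZSC (5285 ± 3411, n = 3), mgCOT (2511 ± 1237, n = 3), and mgROOT (1809 ± 822, n = 2). Next came the ovCPT (166 ± 204, n = 2), hPEN (117 ± 26.1, n = 2), gMCE (61.4 ± 95.3, n = 5), and hMCE (47.7 ± 3.14, n = 4), and last the gCZE (1.05 ± 1.295, n = 3). Of the 25 neighbors in this order, 24 overlapped in their ranges, and the gap lay between the mgROOT and the ovCPT. The order within the mature green stage is therefore not resolved by these libraries. For 5 of the 6 copies taken alone, the 6 mature green subregions also led with a gap below them. For the C08 copy, the 6 led too, but their ranges ran into that of the hPEN.

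Among mature green maternal libraries the A08 copy was the highest of the 6 copies in every library. Its level was 1301, 2286, and 6358 TPM in the mgCPT, 2997, 2038 (unnumbered library), and 532 TPM in the mgCZSC, 3441 and 5072 TPM in the mgISC, and 1407 and 3219 TPM in the mgOSC. In the embryo it was at 726, 376, and 1176 TPM in the mgCOT and 343.5 and 703 TPM in the mgROOT. Libraries of 1 subregion differed by up to 5.6 times, the widest spread being in the mgCZSC.

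Its partner C08 was the lowest of the 6 in all 15 mature green libraries except mgCPT replicate 2. It stood at 48.4, 532, and 234 TPM in the mgCPT, 123, 47.7 (unnumbered), and 9.503 TPM in the mgCZSC, 113 and 159 TPM in the mgISC, and 160 and 119 TPM in the mgOSC. In the embryo it was at 180, 52.9, and 216 TPM in the mgCOT and 26.3 and 222 TPM in the mgROOT. The embryo values of C08 thus lay inside the range of the maternal ones.

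The other 4 copies lay between A08 and C08 in 13 of the 15 libraries. In mgCOT replicate 2 C07 (410 TPM) was above A08, and in mgCPT replicate 2 C01 (480 TPM) was below C08. In the mature green maternal libraries the ranges were 262 to 3190 TPM for A01, 185 to 2255 TPM for C01, 279 to 2883 TPM for A03, and 275 to 3190 TPM for C07. In the mature green embryo libraries they were 201 to 540 TPM for A01, 105 to 351 TPM for C01, 193 to 564 TPM for A03, and 335 to 983 TPM for C07. C07 was thus the highest of these 4 in each embryo library.

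**Figure D2:**
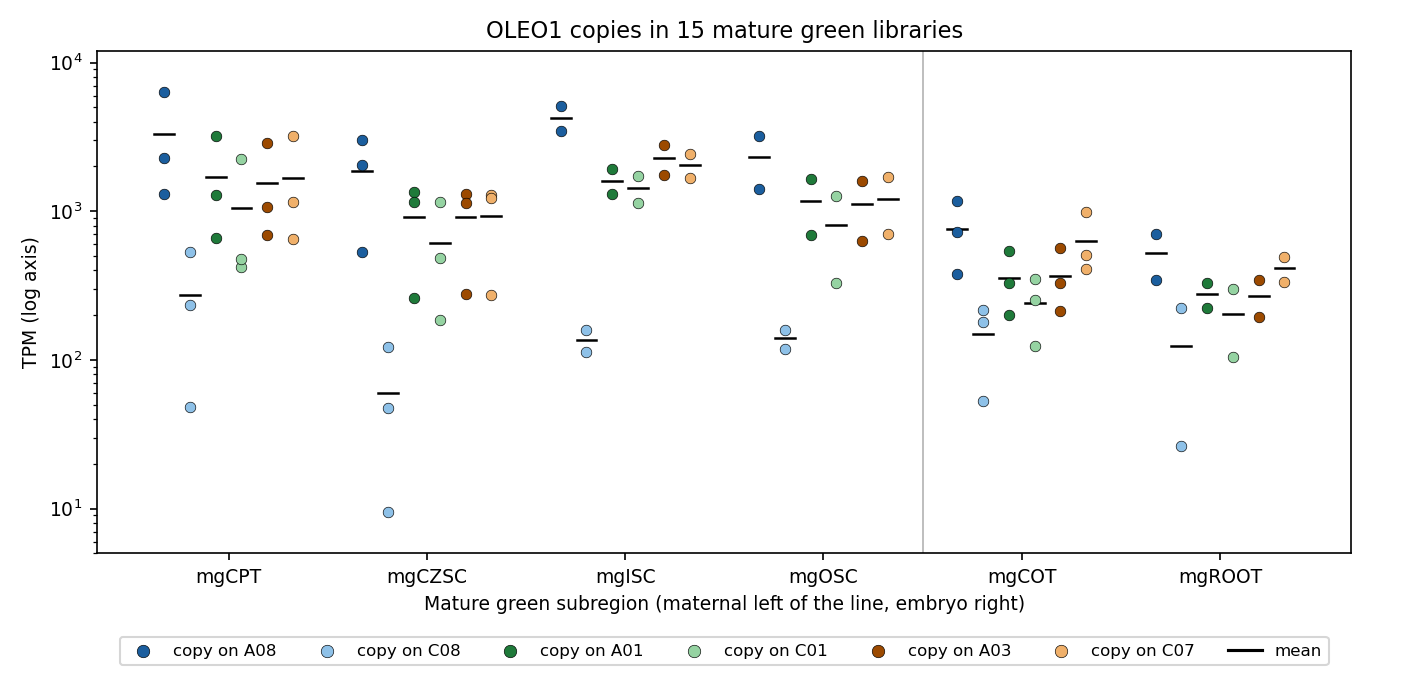
TPM of the 6 *OLEO1* copies on a log axis in the mature green libraries, 1 point per library, with a bar at each mean and the 4 maternal subregions left of the line. The A08 copy leads in the maternal libraries (532 to 6358 TPM), and the C08 copy is lowest in each subregion by its mean (60.0 to 271 TPM).

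All 6 copies rose between the heart and mature green stages in the maternal subregions. The A08 copy averaged 2935 TPM over the 4 mature green maternal subregions, against 6.85 TPM over the 4 heart ones (log2 difference 8.57, SE 0.47, on the log2(TPM + 1) scale, adjusted p = 1.57e-22, limma). The C08 copy averaged 152 TPM, against 1.77 TPM at the heart stage (5.60, SE 0.39, adjusted p = 8.93e-18). The remaining 4 rose by 7.83 (C01) to 8.54 (C07) on that scale. The median of the 6 copies was 8.04, and that of all genes tested was 0.08. All 6 passed the limit of 0.05 on the adjusted p, where 19.1% of all genes were called higher. For each copy all 10 mature green libraries were above all 12 heart libraries, a separation seen for 0.306% of all genes.

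All 6 copies also rose in the embryo, by 5.04 to 7.33 on that scale, and the difference from the maternal rise was not tested. The A03 copy, at 0.00235 (0 reads), 1.57, and 1.45 TPM in the hEP, averaged 319 TPM over the mgCOT and mgROOT, against 1.01 TPM in the hEP (log2 difference 7.33, SE 0.87, adjusted p = 2.70e-10). The C08 copy had the smallest difference (5.04, SE 0.67, adjusted p = 6.60e-09), with 137 TPM in the mature green embryo and 2.08 TPM in the hEP. All 6 copies were called higher, with 0.651% of all genes called higher, and the median of the copies was 6.49 against -0.10 over all genes. Of all calls in this comparison 2.08% were higher, and the share was 43.6% under quantile normalization and 12.8% without the 100 most abundant genes, while the 6 copies were called higher under both. The 5 mature green embryo libraries lay above the 3 hEP libraries for each copy, which held for 1.68% of all genes. In bulk RNA, more cells with the transcript and more transcript per cell cannot be told apart, here and in each comparison that follows.

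Both rises stood together with those of the storage list. Of the 18 genes on that list (SESA, CRU, and *CRB*), 16 were called higher and 1 (*CRB* on A06) lower in the mature green than in the heart maternal subregions. The list median was 7.61. In the embryo 16 were called higher and both *CRB* genes lower, with a median of 7.12. The *CRB* genes thus went against the other 16 there. The paper names *CRB* cruciferin B, and whether these genes encode storage proteins was not checked here. Among 13 genes of oil bodies and oil synthesis, 11 were called higher in the maternal subregions (median 6.30), while the *WRI1* genes, which encode a transcription factor of fatty acid synthesis, had log2 differences of -0.03 and -0.06. In the embryo 6 of the 13 were called higher, among them *OLEO4* on A02 (6.16, SE 0.74), an oleosin, and *PXG1* on C01 (5.43, SE 0.56), a caleosin of the oil body. The 4 called lower were the *WRI1* genes (-3.17 and -2.81) and the *FAB2* genes (-2.65 and -2.26), which encode a stearoyl-ACP desaturase. Both lists were chosen by the authors on these samples and are not independent evidence of a direction.

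Before the mature green stage the levels were low and the tests rested on few reads. In heart against globular endosperm, averaged over the MCE, PEN, and CZE, 5 copies were called higher, where 12.6% of all genes were. The C07 copy averaged 12.96 TPM at heart, against 4.31 TPM at globular (log2 difference 1.996, SE 0.51, adjusted p = 0.00293), and the A08 copy 19.3 TPM, against 6.40 TPM (1.82, SE 0.54, adjusted p = 0.0130). The A03 copy was not called, with 1.46 TPM at heart, against 4.98 TPM at globular (-0.15, SE 0.59, limma adjusted p = 1.00). Without hCZE replicate 2 only 2 copies were called, and without gPEN replicate 1 or hPEN replicate 2 only 3. In the same comparison 7 of the 13 oil genes were called higher, led by *WRI1* on A09 (3.83, SE 0.28) and C08 (3.46, SE 0.25).

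In heart against globular maternal subregions 4 copies were called higher (A08, A01, C01, and A03, with log2 differences of 1.06 to 1.47), where 24.4% of all genes were. The A01 copy averaged 4.20 TPM at heart, against 0.707 TPM at globular (1.47, SE 0.41, adjusted p = 0.00713). The count fell to 1 without gOSC replicate 1, and to 0 with 5 TPM added in place of 1 TPM. Of the 13 oil genes 4 were called higher in this comparison, and of the 18 storage genes 6.

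Within the heart stage, the hPEN held the most *OLEO1* (98.1 and 135 TPM, 1048 and 1583 reads). By mean the hMCE (44.9 to 51.6 TPM) and hCPT (22.8, 56.2, and 48.1 TPM) followed, with overlapping ranges. The hEP stood at 9.55, 30.6, and 19.2 TPM and the hCZE at 1.04 and 13.3 TPM. The hEP totals were thus below those of the hMCE and hPEN, but not below those of the hCZE. The share of all genes with such an order was not computed. No copy was called different between the hEP and the mean of the 3 heart endosperm subregions (log2 differences of -1.07 to -0.21, 0 of 6 by limma, 0 at an unadjusted p under 0.05), where 16.9% of all genes were called in either direction. Of the oil genes only *OLEO2* on A07 (2.16, SE 0.49) and C06 (2.67, SE 0.50) were called higher in the hEP. Between the hEP and gEP no copy was called either (0 of 6 by limma, 0 at an unadjusted p under 0.05), where 0.891% of all genes were.

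Between the cotyledons and the embryonic root the 6 copies had positive differences of 0.28 (A01) to 0.72 (C08) on the log2 scale. None was called by limma (0 of 6, and 0 at an unadjusted p under 0.05), nor was any gene of the oil or storage list, and only 0.0101% of all genes were called in either direction. The standard errors of these differences were 0.79 to 1.08, larger than the differences, so 3 mgCOT and 2 mgROOT libraries do not resolve them.

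Among the 4 mature green maternal subregions, 1 call was made. C08 averaged 60.0 TPM in the mgCZSC, against 182 TPM over the other 3 subregions (log2 difference -1.92, SE 0.63, adjusted p = 0.0421), where 3.96% of all genes were called lower. With the replicate number as a block, in a fit without the unnumbered library, this was -2.16 with an adjusted p of 0.0569. No copy was called without any 1 of mgCPT replicate 2, the unnumbered mgCZSC library, mgCZSC replicate 3, or either library of the mgISC or mgOSC. The other 5 copies were also lower in the mgCZSC (-0.95 to -0.84), without passing the test. In the mgISC all 6 copies had positive differences on the log2 scale (0.43 to 1.18), although the mean TPM of C08 was lower there (136 TPM, against 157 TPM over the other 3 subregions), and none was called (0 of 6 by limma, 0 at an unadjusted p under 0.05, with 3.58% of all genes called in either direction). The mgCPT (0.662% of all genes called) and mgOSC (0.959%) had no called copy either, and none at an unadjusted p under 0.05.

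Whether *OLEO1* was higher in the maternal subregions or in the embryo at mature green depended on the scale. On TPM as deposited, 5 copies were called higher in the maternal subregions. A08 averaged 2935 TPM, against 641 TPM in the embryo (log2 difference 2.07, SE 0.60, adjusted p = 0.00166). A01, C01, and A03 differed by 1.92 to 2.02, and C07 by 1.32 (SE 0.57, adjusted p = 0.0258), a call lost without mgOSC replicate 2 (1.16), mgCOT replicate 2 (1.19), or mgROOT replicate 1 (1.18). C08 averaged 152 TPM in the maternal subregions, against 137 TPM in the embryo (0.11, SE 0.51, adjusted p = 0.827), and its sign turned without mgCPT replicate 2 (-0.08), mgCZSC replicate 1 (-0.09), mgCOT replicate 2 (-0.20), or mgROOT replicate 1 (-0.64).

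These calls did not set the copies apart. Of all genes, 94% were called higher in the maternal subregions, with a median of 1.08. No copy had all maternal above all embryo libraries (0 of 6), although 77.8% of all genes did. The 100 genes of highest mean TPM (members aside) held 28.3% to 62.5% of the TPM in the mature green maternal libraries, against 91.0% to 96.6% in the embryo libraries, which leaves little of the total for other genes in the embryo.

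When TPM was rescaled without those 100 genes, the total ranged from 2875 to 48252 rescaled TPM in the maternal libraries (median 15552), against 25249 to 42727 rescaled TPM in the embryo (median 40019.7). The differences of the 6 copies were then all negative, from -1.08 (A08) to -3.02 (C08), with C08 and C07 called lower. Under quantile normalization A08 was at 0.74 and the other 5 at -0.39 to -2.56, with only C08 called. Of all calls 99.9% were higher in the maternal subregions as deposited, against 93.9% without the 100 genes and 47.8% under quantile normalization. When only the 26 genes of chromosome C09 with a mean of at least 1000 TPM were left out, a scaling added after the data had been seen, 3 copies were called higher and C08 stood at -0.48. The direction between maternal subregions and embryo is thus set by the scale, and the data give none that is free of it. For the alternative scalings, the share of all genes called in each direction is not given beside the counts of called copies. Whether those counts differ from the background was not tested.

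**Figure D3:**
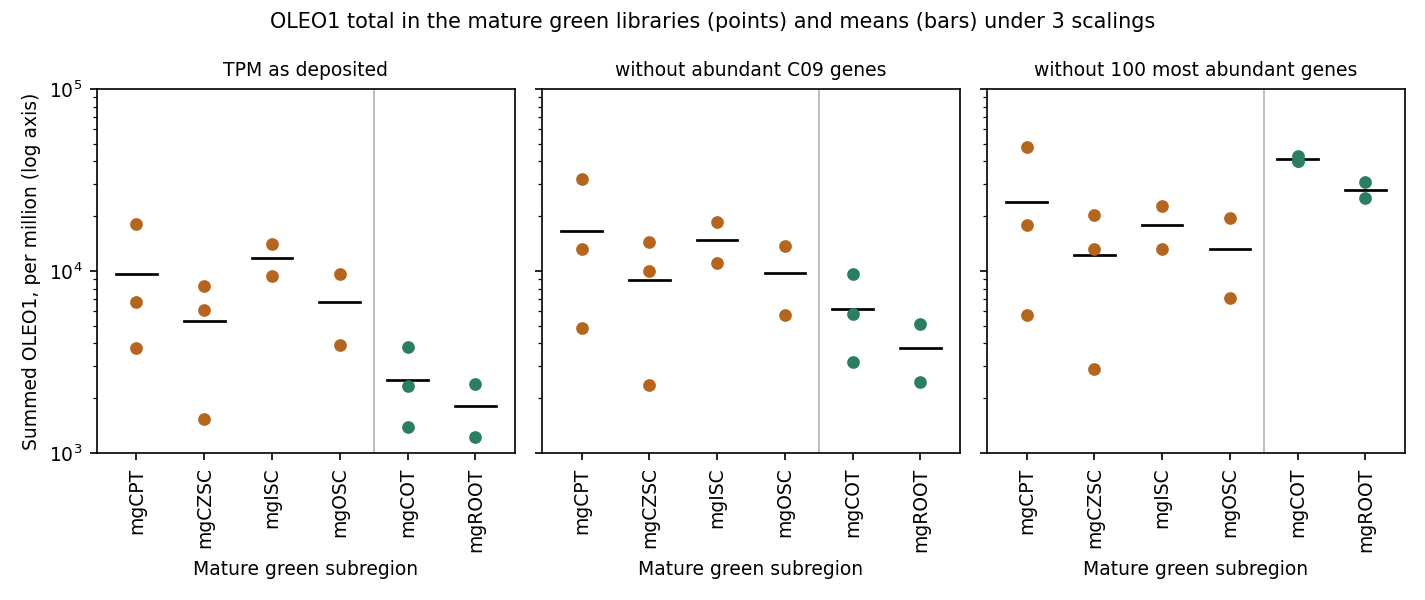
Summed *OLEO1* TPM, deposited or rescaled, on a log axis in the mature green libraries, as deposited, without the abundant C09 genes, and without the 100 most abundant genes. Points are libraries, bars are means, and the 4 maternal subregions stand left of the line. The embryo libraries (1228 to 3831 TPM as deposited) move to 25249 to 42727 rescaled TPM in the panel on the right.

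Ratios within a library do not depend on that scale. For each 100 TPM of the 18 storage genes, mature green maternal libraries held 15.1 to 73.5 TPM of *OLEO1* (median 31.6), against 3.66 to 6.49 TPM (median 5.75) in embryo libraries. Per 100 TPM of the 13 oil genes, they held 155 to 210 TPM (median 179), against 234 to 284 TPM (median 253) in the embryo. The 2 ratios lay in opposite directions. On TPM as deposited, the median log2 difference of maternal subregions from embryo was 1.08 over all genes. It was -0.52 for the storage list and 2.07 for the oil list. How many other genes would differ from these lists in the same way was not computed, so the ratios do not set *OLEO1* apart. The summed storage genes reached 2500 to 63226 TPM in the maternal libraries, against 21250 to 62694 TPM in the embryo, so that storage protein transcripts, which are typical of the embryo, were abundant in the maternal dissections as well. Their part in the maternal *OLEO1* level was not tested.

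All 13 oil genes were called higher in the mature green maternal subregions (median 2.07), as were 94% of all genes. Of the 18 genes of the storage list 2 were called higher (both *CRB*) and 4 lower (3 *SESA4* genes and *SESA1* on A01, -1.65 to -2.23). Over all genes, 71 of 99343 were called lower, so the storage list differed from the background in both directions. All 10 genes of the seed coat, CPT, and *LEC1* marker list were called higher in the maternal subregions too, a share that is again near that of all genes. As for *OLEO1*, the direction of these counts is that of TPM as deposited.

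The A copy led in the A08/C08 pair in all 15 mature green libraries. The A08/C08 ratio of TPM was 26.9, 4.30, and 27.2 in the mgCPT, 24.4, 42.7 (unnumbered), and 56.0 in the mgCZSC, 30.5 and 31.9 in the mgISC, and 8.79 and 27.1 in the mgOSC. It was 4.04, 7.10, and 5.44 in the mgCOT and 13.1 and 3.17 in the mgROOT. Of the 10 maternal libraries, mgCPT replicate 2 and mgOSC replicate 1 fell within the range of the embryo libraries, and the other 8 lay above it.

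Averaged over the 6 mature green subregions, the log2 ratio of A08 over C08 (1 TPM added to each) was 3.84 (SE 0.26, adjusted p = 2.77e-18), where 32.3% of 2328 homoeologous pairs had a higher A copy and the median of these pairs was 0.13. The pairs tested here and below came from 3890 pairs, the part of the study's pair lists used here. Their shares and medians need not hold for all pairs of the genome. A08 was called higher in each subregion alone: 3.86 in the mgCPT (6.16% of pairs called with a higher A copy), 5.22 in the mgCZSC (22.7%), 4.95 in the mgISC (9.34%), 3.94 in the mgOSC (7.16%), 2.42 in the mgCOT (37.8%), and 2.66 in the mgROOT (25.1%). Only 278 pairs were tested in the mgCOT and 279 in the mgROOT, since few pairs there summed to 2 TPM or more. The mgOSC call was lost without replicate 2 (3.13), the mgROOT call without replicate 1 (1.66), and the mgCOT call without the 2 libraries labelled seed coat (2.44, adjusted p = 0.1005). With 0.1 TPM added in place of 1 TPM, the mgOSC and mgROOT calls were lost as well (adjusted p = 0.0516 and 0.0952).

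The A08/C08 ratio was higher in the mature green maternal subregions than in the embryo by 1.95 (SE 0.55, adjusted p = 0.0210), where 4.12% of pairs were called with a higher ratio. That call was lost without mgOSC replicate 2 (1.75), mgCOT replicate 1 (1.85), or mgROOT replicate 2 (1.46), and without the 3 libraries with differing labels (1.84, adjusted p = 0.214), and with 0.1 TPM added (1.96, adjusted p = 0.3002). By reads, C08 took 23.98% of the reads of the pair in mgCPT replicate 2 (95% exact interval 23.6 to 24.3) and 2.36% in mgCZSC replicate 3 (1.83 to 3.00). These intervals do not overlap. They take each read as independent, which need not hold in amplified libraries, and the source of the spread between libraries was not tested. The gene model of C08 is 1.36 times as long as that of A08 by the TPM steps, which the TPM scale takes into account. Reads that map equally well to both copies were not counted by the authors, and the share of such reads in each copy is not known here.

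In the A01/C01 pair A01 was the higher copy in all 15 mature green libraries, by 1.12 to 2.66 times in the maternal and 1.09 to 2.15 times in the embryo libraries. The log2 ratio was 0.60 (SE 0.12, adjusted p = 9.38e-05) over the 6 subregions. It was called in 1 subregion, the mgCPT (0.85, SE 0.27, adjusted p = 0.0419), and that call was lost without any 1 of its libraries and with the replicate number as a block (0.83, adjusted p = 0.0624). Between maternal subregions and embryo the ratio differed by 0.01 (SE 0.26, adjusted p = 0.994).

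In the A03/C07 pair neither copy was called higher over the 6 mature green subregions (log2 ratio -0.25, SE 0.16, adjusted p = 0.221), nor in any one of them, the mgCOT (-0.79, adjusted p = 0.0617) and mgROOT (-0.65, adjusted p = 0.276) included. In mature green maternal libraries the ratio of TPM stayed near 1 (0.902 to 1.15), with A03 higher in 5 of 10. In the embryo it was 0.647, 0.519, and 0.573 in the mgCOT and 0.577 and 0.706 in the mgROOT, so that C07 was higher in 5 of 5 libraries. All 10 maternal libraries lay above all 5 embryo libraries on the log2 ratio, which held for 3.78% of the 2328 pairs. The fitted difference of 0.70 (SE 0.34) did not pass the limit after adjustment over the pairs (adjusted p = 0.256). With 5 TPM added it did (0.69, adjusted p = 0.0141).

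At the heart stage the ratios of this pair spread further. Of the 12 heart maternal libraries, 10 had reads on both copies, with A03 higher in 9 and a median ratio of 1.91. In hOSC replicate 1 both copies were at 0 reads, and in hOSC replicate 2 there were 3 reads of A03 and 0 of C07. In the hMCE A03 stood at 0.596, 0.562, 0.354, and 2.501 TPM, against 13.5, 10.9, 13.3, and 15.7 TPM for C07. In the hPEN A03 was at 1.22 and 3.41 TPM, against 20.2 and 28.1 TPM for C07. These 6 endosperm libraries had log2 ratios of -3.40 to -2.26 (1 TPM added to each copy), which did not overlap with the 12 heart maternal libraries (-0.80 to 1.32). The share of pairs with such a separation was not computed. The hCZE did not share this pattern. Its ratios were 0.10 in replicate 1 (1 read of A03, 0 of C07) and -0.28 in replicate 2 (31 and 33 reads), inside the maternal range.

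C07 was called higher in the hMCE (log2 ratio -2.94, SE 0.30, adjusted p = 8.91e-12, with 5.97% of pairs called with a higher C copy) and in the hPEN (-2.99, SE 0.42, adjusted p = 1.51e-07, 2.96% of pairs). In the hEP it was called higher as well (-1.20, SE 0.35, adjusted p = 0.00441, 3.59% of pairs), on 1, 25, and 20 reads of C07 and 0, 4, and 10 reads of A03. That call was lost without hEP replicate 2 (-0.63). The medians of the pairs tested were 0.49, 0.54, and 0.46 in the hMCE, hPEN, and hEP, toward the A copy. These pairs are only a part of those of the study. Over its own pairs, the paper counted more strongly C-biased than strongly A-biased pairs in these subregions. The test of heart endosperm against maternal ratios was not made.

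The other pairs leaned to the A copy in these subregions. A01 was called higher than C01 in the hEP (1.15, SE 0.27, 38% of pairs called with a higher A copy) and in the hPEN (1.06, SE 0.33, 35.2% of pairs), and not in the hMCE (0.30, SE 0.24). A08 was called higher than C08 only in the hPEN (1.68, SE 0.69, adjusted p = 0.0490), a call lost with the replicate number as a block (1.62, adjusted p = 0.0688). Without either hPEN library the A08 and A01 calls there were lost (1.64 and 1.73 for A08, 0.95 and 1.17 for A01). The A08/C08 ratio of TPM in the 6 hMCE and hPEN libraries was 1.33 to 3.55, below all mature green libraries but mgROOT replicate 2. Between the mgCOT and mgROOT no *OLEO1* pair differed (differences of -0.24 to -0.05, 0 of 3 called by limma and none at an unadjusted p under 0.05), where 0.353% of the 283 pairs were called.

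**Figure D4:**
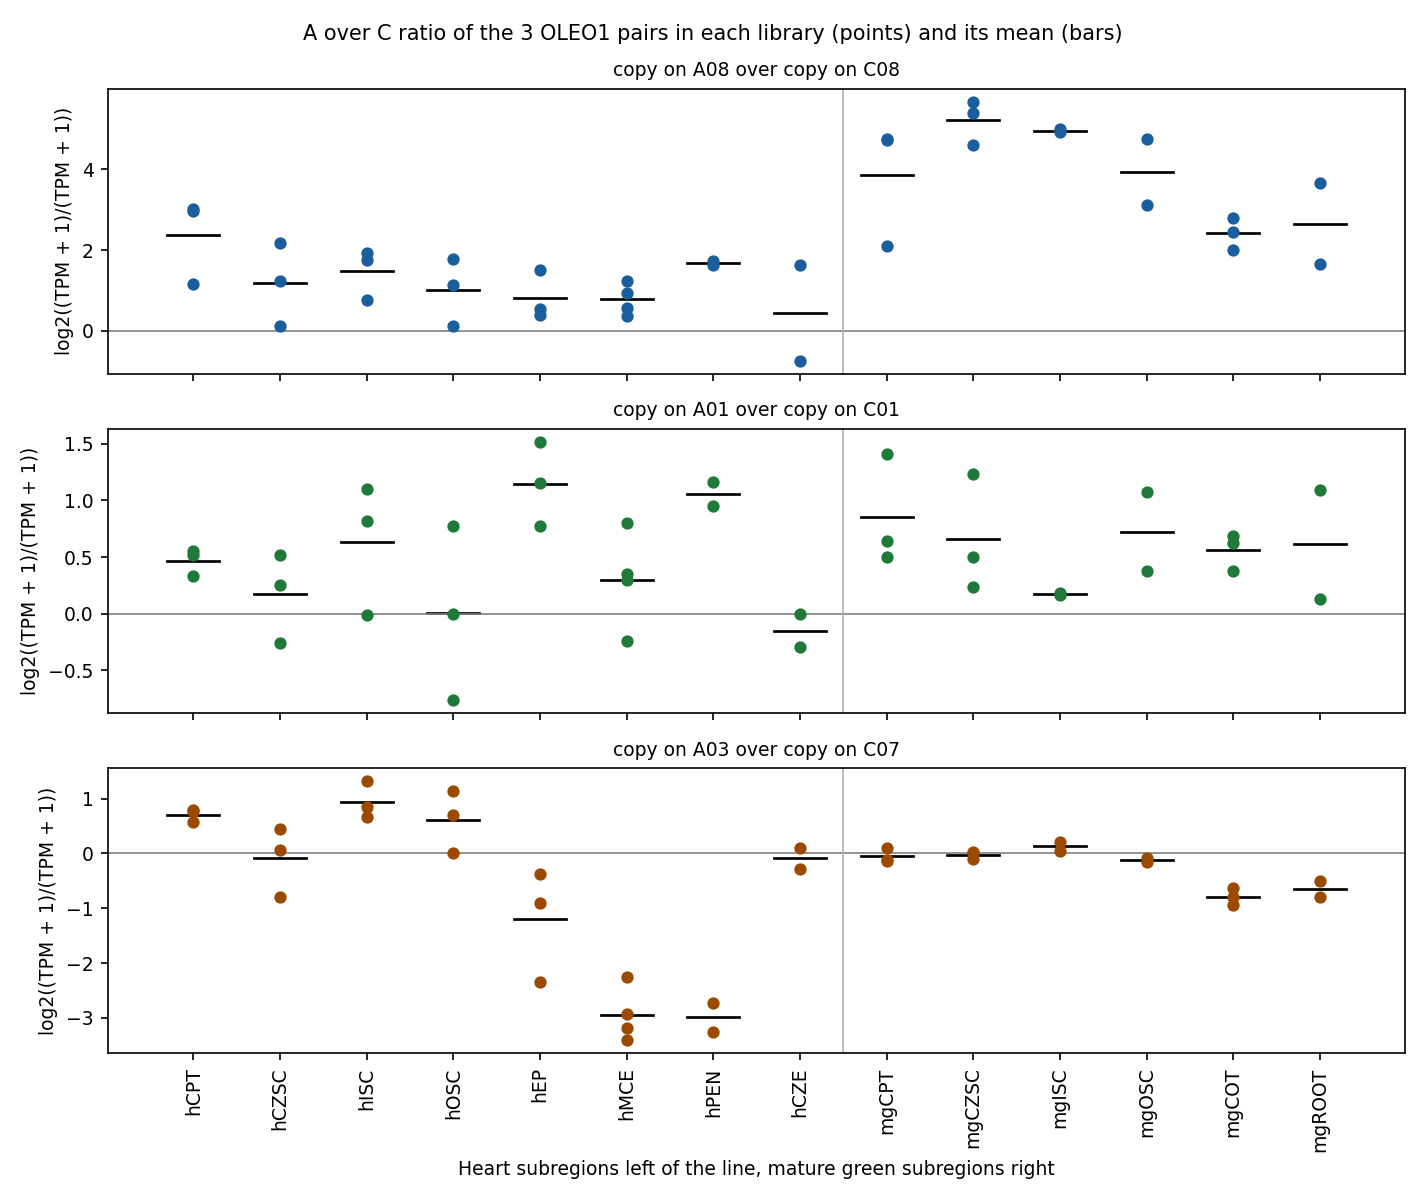
Log2 ratio of the A over the C copy (1 TPM added to each) in each heart and mature green library, with a bar at the mean of each subregion and 1 panel per pair. In the bottom panel (A03 over C07) the hMCE and hPEN lie near -3, the mature green maternal subregions near 0, and the mgCOT and mgROOT at -0.79 and -0.65.

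The copies made up unequal shares of the *OLEO1* total at mature green, and the C08 share varied the most relative to its mean. In the 10 maternal libraries the mean share was 35.0% ± 1.18 (SD) for A08, 2.09% ± 2.23 for C08, 16.9% ± 1.82 for A01, 11.1% ± 2.38 for C01, 17.4% ± 1.4999 for A03, and 17.6% ± 1.11 for C07. In the 5 embryo libraries it was 29.3% ± 1.71 for A08, 5.73% ± 2.88 for C08, 14.97% ± 1.90 for A01, 10.0% ± 1.65 for C01, 14.9% ± 0.665 for A03, and 25.03% ± 3.81 for C07. The A08 range was 33.5% to 36.5% in maternal libraries, above the 27.3% to 31.3% of the embryo. The C07 range was 15.7% to 20.2%, below the 20.5% to 29.8% of the embryo. While the total varied by 11.7 times among the maternal libraries, the A08 share varied by 3.04 percentage points.

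Together the 3 A copies held 67.7% to 71.0% of the total in the mature green maternal libraries, against 57.3% to 62.03% in the embryo. In the heart filial subregions they held 38.6% to 50.8% in the hMCE, 58.1% to 59.9% in the hPEN, and 45.8% to 67.4% in the hEP. The A03 share was 2.15% ± 2.24 in the hMCE (n = 4) and 1.88% ± 0.908 in the hPEN (n = 2), against 21.3% ± 1.29 in the hCPT (n = 3). C08 held 16.6% ± 3.49 in the hMCE and 10.5% ± 0.162 in the hPEN, more than in any mature green subregion by its mean.

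**Figure D5:**
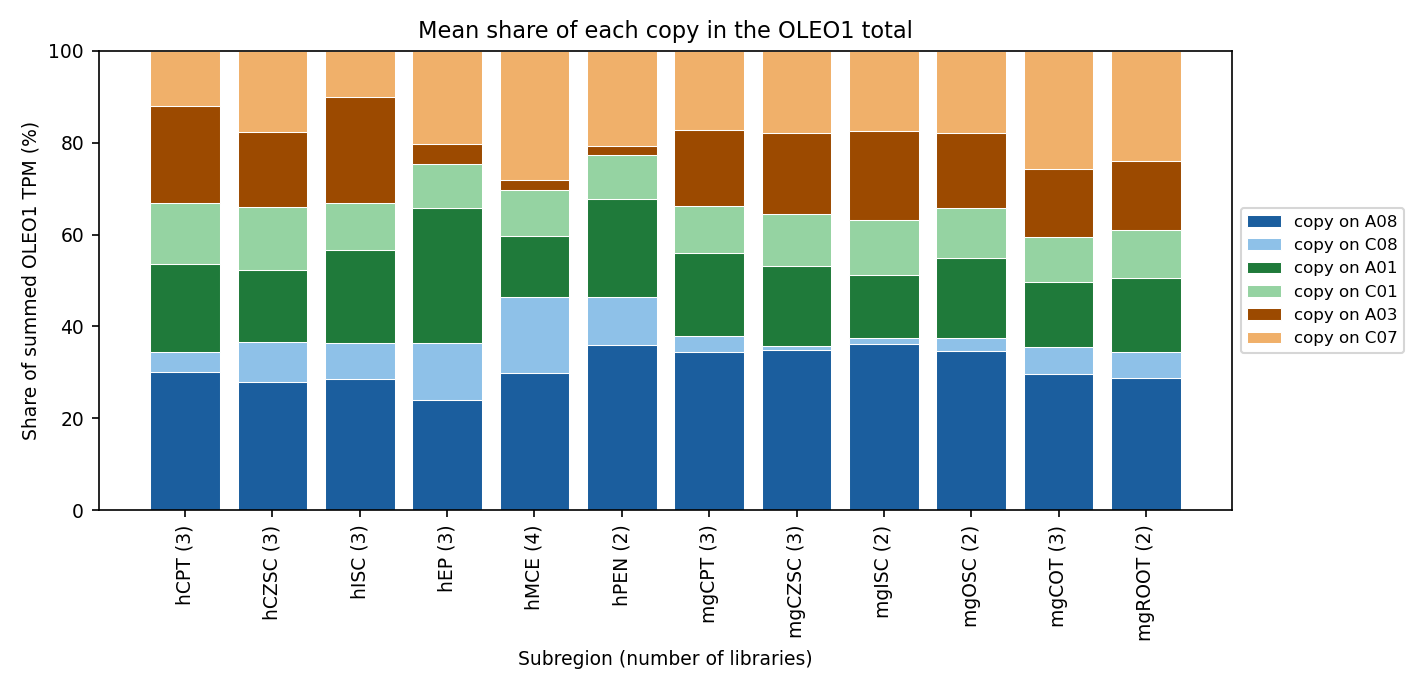
Mean share of each copy in the *OLEO1* total, in percent, in the heart subregions with a mean total of at least 10 TPM and in the mature green subregions, with the number of libraries in parentheses. The A03 share is 2.15% in the hMCE and 1.88% in the hPEN, and C08 takes at most 5.74% in a mature green subregion.

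Across the 26 subregion means of log2(TPM + 1), the copies followed one another closely, with Pearson r between 0.965 (A03) and 0.996 (A08) for a copy against the sum of the other 5. The points share libraries and a common jump at mature green, and r is given as a description. Among 35989 genes with at least 10 TPM in a subregion, the members included, the 5 other genes most like the *OLEO1* total were BnaA09g02110D (r = 0.979), *PXG1* on C01 (BnaC01g18950D, 0.978), *PXG1* on A01 (BnaA01g15860D, 0.977), BnaA07g13950D (0.976), and *CRU2* on A10 (BnaA10g02240D, 0.968). In all, 39 genes outside the members had an r above 0.95. BnaA09g02110D averaged 2105 TPM over the mature green subregions, near the 2170 TPM of the A08 copy, against 6.80 TPM over the earlier subregions.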

How the data were processed

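LMD libraries were sequenced after amplification of total RNA with an RNA integrity number of at least 3. The authors used fastp for trimming, HISAT2 for alignment against Darmor-bzh, and featureCounts for reads of unique position, and they deposited 1 table of TPM, with 0.01 reads added to each gene before scaling. Versions are not given in the sources used here. Reads that fit near-identical copies equally well were counted for none of them. Whole reads were recovered for 88749 of 101040 genes (88.8% of values under 50 reads were whole within 0.05 reads), and they give a lower limit of depth. No sequence is shown, since 0 of the 6 copies matched the RefSeq table used here.

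Libraries were grouped by title. In 1 column the name differed from every sample title (the unnumbered mgCZSC library), and it was used as a library of its subregion without a number. Genes were tested with limma 3.58.1 (R 4.3.3, variance trend, two-sided) on log2(TPM + 1), in 1 fit of 26 subregion means over 74 libraries, with Benjamini-Hochberg adjustment over 99343 genes and a limit of 0.05 in each of 12 comparisons. Log2((A TPM + 1)/(C TPM + 1)) was fitted in the same way over homoeologous pairs whose copies together reached 2 TPM, from 3890 pairs (45 of the gene list of the study, the rest from the part of its pair tables used here). Adding 1 TPM understates the change of low genes. No test was made on the *OLEO1* total or on shares. The exact intervals are Clopper-Pearson (scipy 1.17.1). Data were simulated for mature green against heart maternal subregions, with normal spread and no other differences. In them 200 genes with a mean log2(TPM + 1) above 1 were raised by 2 or 4 log2 units. Of these, 100% were recovered among 99343 genes, and 5.21% of calls were of unchanged genes. Smaller changes and lower genes were not simulated.

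Named genes were the 6 copies, 13 oil and 18 storage genes of the study's list, tissue markers, and the 5 genes with the highest r to the *OLEO1* total. The members and lists were chosen with earlier results of these data known. Alternatives were pseudocounts of 0.1 and 5 TPM, filters at none and 5 TPM (10 TPM for pairs), quantile normalization, rescaling without the 100 most abundant genes or without 26 abundant C09 genes, the replicate number as a block, and leaving out libraries.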

Additional observations from a re-analysis of the deposited data

Results flagged for a closer look

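Within groups of 4 or 5 libraries, 10 of 21 sets of values held a library far above the rest of its group, and 7 of the 10 were values of 1 library, gMCE replicate 2. The limit used would be passed by about 1 in 20 sets of normally distributed values, and TPM are skewed, so this rate need not hold here. In gMCE replicate 2 the *OLEO1* total was 230 TPM, with 37.6 TPM in the next library. The copies there stood at 62.001 TPM for A08, 19.97 TPM for C08, 28.4 TPM for A01, 18.7 TPM for C01, 52.1 TPM for A03, and 48.9 TPM for C07, so that all 6 were high together, on 332 reads. In gEP replicate 1, which held 56 *OLEO1* reads, A03 was at 28.7 TPM (next 0.928 TPM) and C07 at 4.43 TPM (next 1.77 TPM). In hMCE replicate 4, A03 was at 2.501 TPM (next 0.596 TPM), and its log2 ratio to C07 (-2.26) lay below those of the heart maternal libraries. The 21 sets share libraries and are not independent.

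The A08/C08 ratio differed between the mature green maternal subregions and the embryo by 1.95 on the log2 scale in the test of that difference.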

How the results depend on the processing

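Both rises to mature green (6 of 6 copies higher in maternal subregions and in the embryo) and the 2 pairs called at mature green as a whole kept their calls under each alternative run, and without each library in turn. The 5 copies higher in mature green maternal subregions than in the embryo became 3 with a pseudocount of 0.1 TPM, 3 without abundant C09 genes, 0 under quantile normalization, and 0 without the 100 most abundant genes, and 4 to 5 with a library left out. The log2 difference without the 100 genes was -1.08 (A08), -3.02 (C08), -1.20 (A01), -1.22 (C01), -1.12 (A03), and -1.82 (C07). Under quantile normalization it was -2.56 (C08), -0.68 (A01), -1.11 (C01), -0.39 (A03), and -0.69 (C07). C08 also turned to -0.48 without abundant C09 genes and -0.030 without the libraries of differing label, and ranged from -0.64 to 0.87 with a library left out. The single call in the mgCZSC became 0 with a pseudocount of 0.1 TPM, without the 100 genes, without the C09 genes, with the replicate block, and without the unnumbered library, and ranged from 0 to 1 with a library left out (C08 -2.74 to -0.96).

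Of the 5 copies higher in heart than globular endosperm, 2 were called with a pseudocount of 5 TPM and 2 under quantile normalization, and 2 to 5 with a library left out. The A03 difference there was 0.32 with a pseudocount of 0.1 TPM and ranged from -0.40 to 0.14. The 4 copies higher in heart than globular maternal subregions became 0 with a pseudocount of 5 TPM and 0 under quantile normalization, and 1 to 5 with a library left out. The 1 pair whose ratio differed between maternal subregions and embryo became 0 with 0.1 TPM added, 2 with 5 TPM added, and 0 without the libraries of differing label, and ranged from 0 to 1. With 0.1 TPM added the calls of A01 over C01 in the mgCPT and of A08 over C08 (adjusted p = 0.316) and A01 over C01 (0.191) in the hPEN were lost as well, and with 5 TPM added C07 was called over A03 at mature green as a whole (-0.25, adjusted p = 0.0303). The cause of these changes was not tested. Replicate numbers did not pair libraries: the mean correlation of deviations was 0.011 for 186 pairs of libraries with the same number and -0.005 for 452 others. The replicate block was fitted without the unnumbered library, and hEP against gEP moved from 885 to 2373 genes. Of the calls on copies and pairs, those of C08 in the mgCZSC, A01 over C01 in the mgCPT, and A08 over C08 in the hPEN were lost in that fit. The C08 call was also lost when only the unnumbered library was left out, so its loss cannot be credited to the block.

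Over all genes, quantile normalization changed these counts of calls: 93488 to 42566 for maternal subregions against embryo, 31032 to 18264 for mature green against heart embryo, 33449 to 9403 for heart against globular maternal subregions, 10 to 1204 for mgCOT against mgROOT, 3558 to 17558 in the mgISC, 658 to 7210 in the mgCPT, 9524 to 16937 in the mgCZSC, 953 to 4330 in the mgOSC, and 885 to 361 for hEP against gEP. With 0.1 TPM added, mgISC, mgCPT, mgOSC, hEP, and mgCOT comparisons had 2081, 136, 256, 501, and 5 calls, and hEP against gEP had 2726 with 5 TPM added. A filter at 5 TPM gave 53496, 17707, and 1488 for maternal against embryo, heart against globular maternal, and hEP against gEP. Without the 100 genes there were 310 for mgCOT against mgROOT and 6789 in the mgISC (5495 without the C09 genes), and without the libraries of differing label 3 and 398 for mgCOT against mgROOT and the mgCPT. Before mature green, few reads per copy limit the tests.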
